A study of Mus musculus with 2 samples.

Results

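The 10 genes described here are the circadian clock genes Arntl, Clock, Npas2, Per2, Per3, Cry1, Cry2, Nr1d1, Nr1d2 and Dbp. They were chosen by name as the activators, the repressors and an output of the clock, and all 10 were found among the 23361 rows of the deposited table that held values. Brown preadipocytes (D0) and brown adipocytes (D7) of C57BL/6 mice were profiled by RNA-Seq, and each stage had 1 library. The cells were isolated from interscapular brown fat of newborn pups. Both groups were kept in medium with 10% serum, T3 at 1 nM and insulin at 0.1 μM from 4 days before induction. For 2 days from D0, the D7 cells also received indomethacin at 0.125 mM, the synthetic glucocorticoid dexamethasone at 2 μg/ml, and IBMX, an inhibitor of cAMP breakdown, at 0.5 mM. These media and concentrations are those of the sample labels, and the paper's methods give other values for insulin and dexamethasone. The paper's methods also list insulin and T3 only in the media used from D0 on, and not in the medium of the preadipocytes. The labels call the cells primary cultures, whereas the paper's methods describe cells from pups of 1 pregnant mouse that were immortalized with large T.

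The circadian clock is a loop of transcription and repression that takes about a day to complete. BMAL1 (the product of Arntl) binds DNA together with CLOCK or its relative NPAS2 and activates genes with E-box motifs, among them the Per and Cry genes, whose proteins return to the nucleus and block the activators. A side loop sets the level of Arntl itself through the REV-ERB repressors (Nr1d1 and Nr1d2) and the ROR activators, which compete for the same DNA element. DBP carries the rhythm to other genes through D-box motifs. Brown fat has its own clock, and REV-ERBα is known there as a repressor of Ucp1. In cell culture, dexamethasone, agents that raise cAMP and changes of serum are commonly used to set the clocks of many cells to the same phase. The hour of harvest was not given in the sources used here. A different phase of the clock and a different mean level of a clock gene therefore cannot be told apart in these 2 libraries.

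Promoters of 9 of the 10 clock genes, and of Per1, were found in the RefSeq promoter table of GRCm38.p6, which gives 250 bases before and 50 bases after each start site. Per2 was not matched. Letters searched on both strands were CACGTG for the E-box, CACGTT for the related E′-box (AACGTG when read on the other strand), TTATGTAA or TTACGTAA for the D-box, and TAGGTCA or TGGGTCA for the core of the REV-ERB and ROR element. No motif contains another one of these. Of all 32851 windows in the table, 7.15% held the E-box, 4.68% the E′-box, 1.06% the D-box and 6.45% the REV-ERB and ROR core. Matches to any of these motifs were found in 5 of the 9 clock genes, which had 12 windows between them. Clock, Npas2, Nr1d2 and Dbp held none. The shares above are per window and per single motif. The share of all genes with any match was not computed, so this number is no result about the group. These are letters in a window and not measured binding sites. The sequences below are the stretches before the start sites of Per3, the Per1 gene related to it, Cry1 and Nr1d1, shown because they hold the letters through which each loop is known to act. Capitals mark the matches.
Per3, chr4:151044666-151044915, minus strand: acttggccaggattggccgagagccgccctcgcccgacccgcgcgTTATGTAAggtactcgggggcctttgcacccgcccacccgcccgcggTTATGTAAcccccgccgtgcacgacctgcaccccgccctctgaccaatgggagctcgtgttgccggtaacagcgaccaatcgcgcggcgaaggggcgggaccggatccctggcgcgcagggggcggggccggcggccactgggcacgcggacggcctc
Per1, chr11:69098699-69098948, plus strand: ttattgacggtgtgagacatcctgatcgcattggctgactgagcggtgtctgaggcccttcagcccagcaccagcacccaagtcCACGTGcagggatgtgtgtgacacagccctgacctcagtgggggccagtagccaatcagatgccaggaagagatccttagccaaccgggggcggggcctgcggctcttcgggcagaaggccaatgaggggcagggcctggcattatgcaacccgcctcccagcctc
Cry1, chr10:85185055-85185304, minus strand: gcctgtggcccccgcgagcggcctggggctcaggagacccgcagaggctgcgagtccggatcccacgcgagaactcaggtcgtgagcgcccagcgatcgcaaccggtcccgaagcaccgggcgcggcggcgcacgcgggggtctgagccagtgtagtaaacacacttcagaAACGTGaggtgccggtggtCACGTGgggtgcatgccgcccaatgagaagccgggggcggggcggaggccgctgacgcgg
Nr1d1, chr11:98775378-98775627, minus strand: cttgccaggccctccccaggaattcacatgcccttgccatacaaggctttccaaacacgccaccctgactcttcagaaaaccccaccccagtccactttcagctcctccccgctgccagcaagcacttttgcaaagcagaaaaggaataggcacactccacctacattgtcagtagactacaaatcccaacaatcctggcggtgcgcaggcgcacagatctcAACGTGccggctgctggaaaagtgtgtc
Per3 held the D-box letters at 2 places, 205 and 158 bases before its start site. Cry1 held an E-box 60 bases and an E′-box 79 bases before the start, Per1 an E-box 166 bases before it, and Nr1d1 an E′-box 28 bases before it. The RefSeq start of Nr1d1, at 98775377, lies outside the GENCODE span of the gene given with its values, and the bases that follow it were not found in a GENCODE transcript of Nr1d1, so this distance rests on the RefSeq start alone. The E′-box of Cry2, 166 bases before the start, and the REV-ERB and ROR core of Arntl, which begins at base 31 of its second annotated transcript, are shown with a few flanking bases only.
Cry2, chr2:92434220-92434245, minus strand: acatggtgggAACGTGagggggcgga
Arntl, chr7:113207531-113207557, plus strand: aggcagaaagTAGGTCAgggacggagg

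The values are FPKM, fragments scaled to transcript length and to sequencing depth, as deposited, so that levels of different genes are compared per length. From whole fragments in genes with a single exon, the depth behind FPKM was found to be 21471746 fragments for the D0 library and 18264110 for the D7 library. The clock genes then rested on about 71 to 1351 fragments per library. Each ratio is given with its exact 95% Clopper-Pearson interval, computed from fragment numbers that are approximate for genes with several exons. Such an interval covers counting error between 2 libraries and says nothing of the spread between cultures. Without replicates no p-value is given. A gene was taken as changed at a ratio of D7 to D0 of at least 2.0 or at most 0.5. The adipocyte markers went with the labels, but of 6 preadipocyte markers only 3 were lower at D7 by at least 2.0-fold. All 9 adipocyte markers with a value above 0 in both libraries were higher at D7 by over 2.0-fold, while Ucp1 and Elovl3, listed at 0 at D0, reached 4.57 and 34.2 FPKM at D7. All 6 genes of cell division were lower by over 2.0-fold.

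At D7 Per2 and Per3 were higher by 2.0-fold or more, Clock lay just under that fold, and the other clock genes stayed closer to their D0 level. Of the 10 clock genes, 2 (Per2 and Per3) were higher by at least 2.0-fold, 0 were lower and 8 lay between. Over all 14986 genes above 0 in both libraries, 31.7% passed the same fold, 18.5% as higher and 13.2% as lower. Among the 11967 of these genes that reached an FPKM of 1 in a library, as each clock gene did, the shares were 27.6%, 15.6% and 11.9%. The 20% of clock genes past the fold thus lies near the share of all genes, and their number is no result about the group. Their median log2 ratio was 0.48 as deposited, against 0.02 for all genes. Of their 10 ratios, 8 lay above 1 as deposited, compared with 50.6% of all genes. When each library was scaled to its median, 6 of the 10 lay above 1. That scaling lowered the ratios of the 10 genes by the same factor, and the share of all genes above 1 was not computed for it. The median log2 ratio of the clock genes was then 0.12, against -0.35 over all 23361 genes.

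**Figure D1:**
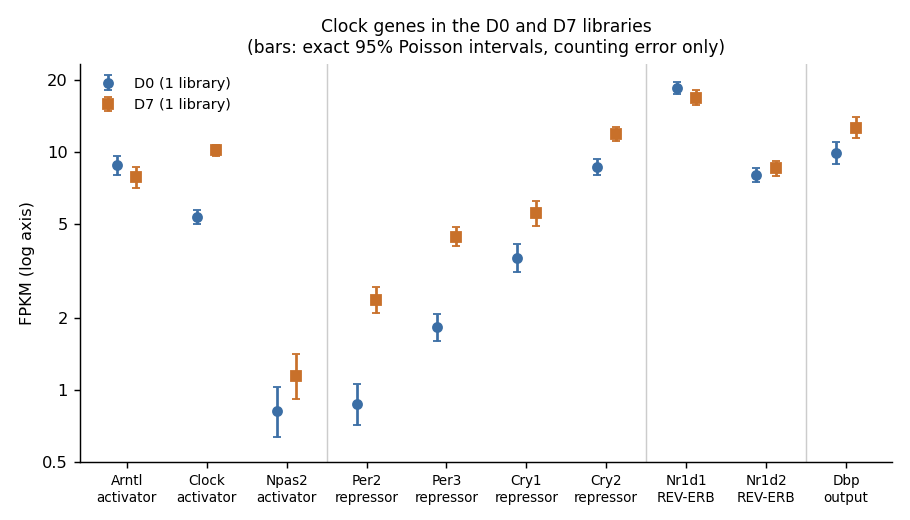
FPKM (log axis) of the 10 clock genes, grouped by role, in the D0 library (circles) and the D7 library (squares), with exact 95% Poisson intervals for counting error only. Per2, Per3 and Clock sit well above their D0 value at D7, whereas Arntl, Npas2, Nr1d1 and Nr1d2 have overlapping intervals.

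The activators did not move together. Arntl (ENSMUSG00000055116.8, chromosome 7, 113207465 to 113314126), which encodes BMAL1, measured 8.78 FPKM at D0 against 7.81 FPKM at D7. Its ratio of 0.890 had an interval from 0.779 to 1.02, which includes 1. Clock (ENSMUSG00000029238.11, chromosome 5, 76209868 to 76304792), the usual partner of BMAL1, measured 5.35 FPKM at D0 against 10.1 FPKM at D7. The ratio of Clock was 1.90, and its interval from 1.74 to 2.07 reached past 2.0. Npas2 (ENSMUSG00000026077.15, chromosome 1, 39193731 to 39363236), which can stand in for CLOCK, had the lowest level of the 10 genes in both libraries, at 0.815 and 1.15 FPKM. It rested on about 71 and 85 fragments, and its ratio of 1.41 had an interval from 1.02 to 1.96. When each library was scaled to its median, the Npas2 ratio was 1.11, with an interval from 0.796 to 1.53 that includes 1. Clock therefore passed Arntl in level, from below it at D0 to above it at D7, and the intervals of their FPKM values were apart in each library. The locus that the table gives for Clock runs from 76183880 to 76469519 and takes in neighbours such as Tmem165, which measured 47.7 FPKM at D0 against 36.7 FPKM at D7. An annotated antisense gene, Gm45355, overlaps exons of Arntl.

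All 4 repressors were higher at D7 as deposited, Per2 and Per3 past 2.0-fold and the Cry genes below it. Per2 (ENSMUSG00000055866.9, chromosome 1, 91415982 to 91459324), a partner of the cryptochromes in the repressing complex, rose from 0.872 to 2.39 FPKM, or from about 106 to 247 fragments. Its ratio of 2.74, with an interval from 2.17 to 3.47, was the highest of the 10 genes and above that of 87.5% of all genes. With a pseudocount of 1 the Per2 ratio was 1.81, under 2.0-fold and below the 1.90 of Per3. Per3 (ENSMUSG00000028957.12, chromosome 4, 151003652 to 151044665), whose promoter holds the D-box letters shown above, rose from 1.84 to 4.40. The ratio of Per3 was 2.39, with an interval from 2.04 to 2.81, above that of 85.8% of all genes, and lay at 1.87 when each library was scaled to its median. Per2 and Per3 moved by a similar factor, since the quotient of Per2 to Per3 was 0.474 at D0 and 0.543 at D7. The 2 genes lie on different chromosomes, and no annotated gene overlaps Per2. The span of Per3 overlaps that of Camta1 without shared exons, and Camta1 had a ratio of 0.903.

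The cryptochromes, which give the repressing complex its hold on CLOCK and BMAL1, had smaller ratios. Cry1 (ENSMUSG00000020038.10, chromosome 10, 85131700 to 85185064) measured 3.60 FPKM at D0 against 5.52 FPKM at D7, a ratio of 1.54 with an interval from 1.28 to 1.84. Cry2 (ENSMUSG00000068742.11, chromosome 2, 92403646 to 92434043) had 8.64 and 11.9, a ratio of 1.37 with an interval from 1.24 to 1.52. When each library was scaled to its median, Cry1 lay at 1.20 with an interval from 1.005 to 1.44. Cry2 then lay at 1.07, and its interval from 0.970 to 1.19 included 1. Cry2 was the more abundant of the pair in both libraries, with a Cry1 to Cry2 quotient of 0.416 at D0 and 0.466 at D7. An annotated gene on the opposite strand, D930015M05Rik, overlaps exons of Cry2 and shares its locus in the table. It measured 0.276 FPKM at D0 against 0.326 FPKM at D7. As a group the 4 repressors had a median ratio of 1.92, and the 3 activators one of 1.41.

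As deposited, the REV-ERB receptors were close to their D0 level. Nr1d1 (ENSMUSG00000020889.11, chromosome 11, 98767932 to 98775333), which encodes REV-ERBα, was the most abundant clock gene of both libraries, at 18.6 FPKM in the D0 library and 16.9 FPKM in the D7 library. Its ratio of 0.910 had an interval from 0.829 to 1.00. Nr1d2 (ENSMUSG00000021775.11, chromosome 14, 18204054 to 18239127), the gene of REV-ERBβ, had 7.997 and 8.52 FPKM, a ratio of 1.07 with an interval from 0.960 to 1.18. The Nr1d2 ratio turned to 0.835 when each library was scaled to its median. The intervals of Arntl, Nr1d1 and Nr1d2 included 1 as deposited, but lay below 1 when each library was scaled to its median, with upper ends of 0.797, 0.784 and 0.925. Exons of Nr1d1 overlap those of the thyroid hormone receptor gene Thra on the opposite strand. Thra measured 27.5 FPKM at D0 against 36.0 FPKM at D7. The library preparation kept strand, but whether the counting used it was not given in the sources used here, so reads of Nr1d1 and Thra may not have been told apart.

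Dbp (ENSMUSG00000059824.12, chromosome 7, 45705088 to 45710203), the output factor that binds D-boxes, measured 9.91 FPKM at D0 against 12.6 FPKM at D7, the highest clock gene level after Nr1d1 in both. Its ratio of 1.27 had an interval from 1.10 to 1.48 but lay at 0.998 when each library was scaled to its median. Sphk2, on the opposite strand, overlaps exons of Dbp and shares its locus in the table, at 13.7 FPKM in the D0 library and 16.7 FPKM in the D7 library. Between the highest and the lowest of the 10 levels there was a 22.8-fold range at D0 and a 14.7-fold range at D7. In the order of levels at D0, Dbp overlapped in its interval with Arntl, Arntl with Cry2, Cry2 with Nr1d2, and Per2 with Npas2. At D7, overlaps remained between Dbp and Cry2 and between Nr1d2 and Arntl, and Per2 stood apart from Npas2.

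A quotient of 2 genes within a library does not depend on a factor that scales a whole library, although a pseudocount still changes it. Per2 to Arntl rose from 0.0994 at D0 to 0.306 at D7, a 3.08-fold increase with an approximate 95% interval from 2.37 to 4.00, and a 2.01-fold one with a pseudocount of 1. Dbp to Arntl went from 1.13 to 1.62, a factor of 1.43 with an interval from 1.18 to 1.74. Nr1d1 to Arntl was almost the same in the libraries, at 2.12 and 2.16, and its factor of 1.02 had an interval from 0.870 to 1.20. Per2 and Dbp thus gained on Arntl. In the side loop, the repressor gene Nr1d1 fell against the activator gene Rora, from a quotient of 6.15 at D0 to 2.02 at D7, a factor of 0.329 with an interval from 0.289 to 0.375. Nr1d1 to Nr1d2 went from 2.32 to 1.98, a factor of 0.854 with an interval from 0.744 to 0.981. Npas2 to Clock went from 0.152 to 0.113, a factor of 0.745 whose interval from 0.537 to 1.03 includes 1. The intervals of the Cry1 to Cry2 and Per2 to Per3 factors, 1.12 and 1.15, also included 1, running from 0.915 to 1.37 and from 0.868 to 1.51.

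Of 18 other clock genes, 2 were higher by at least 2.0-fold (Per1 and Rora), 0 were lower and 16 lay between, that is 11.1% against 31.7% of all genes. The median log2 ratio of these 18 genes was -0.23. Per1, the third Per gene and a known target of the glucocorticoid receptor, rose from 6.13 to 15.2 FPKM. Its ratio of 2.48, with an interval from 2.25 to 2.74, lay between those of Per3 and Per2, so that all 3 Per genes passed 2.0-fold as deposited. When each library was scaled to its median, Per2 alone passed it, with Per1 at 1.94. Summed over Per1, Per2 and Per3, FPKM was 8.84 at D0 and 22.0 at D7. Rora, an activator that competes with the REV-ERB receptors, rose from 3.02 to 8.35, a ratio of 2.77 with an interval from 2.53 to 3.02. Rorb, a relative of Rora, was near the lower end of the table, with about 12 and 17 fragments. The REV-ERB genes, for comparison, summed to 26.6 FPKM at D0 and 25.4 FPKM at D7. An annotated antisense gene, Gm15511, overlaps exons of Rora.

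The other genes of this list stayed within 2.0-fold. Tef, related to Dbp and binding the same D-boxes, measured 16.0 FPKM at D0 against 28.8 FPKM at D7, a ratio of 1.80 with an interval from 1.68 to 1.93. Hlf, the remaining member of that family, was low at 0.306 and 0.439. Nfil3, which represses through D-boxes, had 23.4 and 25.5, and its ratio of 1.09 had an interval from 0.996 to 1.20 and turned to 0.856 when each library was scaled to its median. Bhlhe40, a repressor at E-boxes, had a ratio of 1.15, or 0.902 after that scaling, and its relative Bhlhe41 one of 0.721. Ciart, also a repressor of CLOCK and BMAL1, measured 2.14 FPKM at D0 against 1.22 FPKM at D7, a ratio of 0.568 with an interval from 0.345 to 0.915, and was the lowest of the list. Arntl2, the paralog of Arntl, had a ratio of 0.815 with an interval from 0.582 to 1.14. Of the kinases and ubiquitin ligases that time the turnover of the PER and CRY proteins, Csnk1d, Csnk1e, Btrc, Fbxw11, Gsk3b and Fbxl21 had ratios between 0.660 and 0.983.

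**Figure D2:**
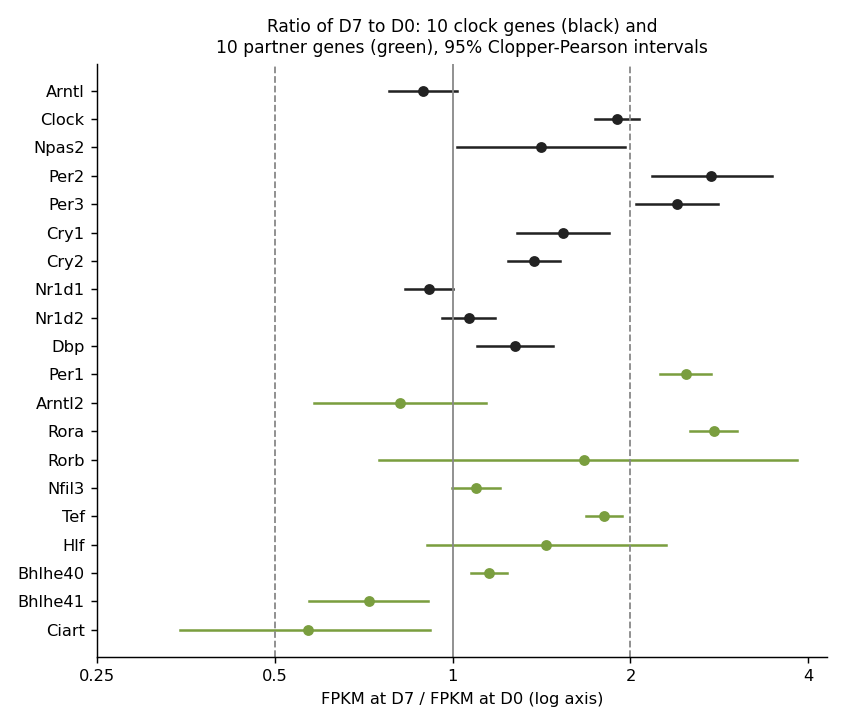
Ratio of FPKM at D7 to D0 (log axis) with exact 95% Clopper-Pearson intervals for the 10 clock genes (black) and 10 partner genes (green), with dashed lines at 0.5 and 2.0. Per1, Per2, Per3 and Rora lie beyond 2.0 with their whole intervals, and none lies below 0.5.

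Most of the listed genes that the clock drives in many tissues were higher at D7. Of 10 such genes, 7 were higher by at least 2.0-fold, 0 were lower and 3 lay between, against 18.5% higher among all genes. Their median log2 ratio was 2.05. Lpin1, which makes diacylglycerol for triglyceride synthesis, rose from 8.09 to 103 FPKM, a ratio of 12.8. Nampt, the rate-limiting enzyme of NAD salvage, rose from 12.8 to 86.6, and Klf9, a zinc finger factor, from 8.21 to 53.0. Usp2, a deubiquitinase with a strong daily rhythm in many tissues, rose from 2.38 to 11.8, a ratio of 4.98 with an interval from 4.25 to 5.88. Alas1, the first enzyme of heme synthesis, rose from 32.0 to 133, Tsc22d3, a glucocorticoid-induced gene, from 24.5 to 101, and Por, which passes electrons to cytochromes P450, from 41.2 to 91.0, although Por had a ratio of 1.73 when each library was scaled to its median. The 3 genes within 2.0-fold were Klf10 (ratio 1.63), the cell cycle kinase gene Wee1 (0.789) and Noct (0.678). Beside them, the core clock genes had ratios between 0.890 (Arntl) and 2.74 (Per2), and a list of this kind holds genes with other known controls as well.

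**Figure D3:**
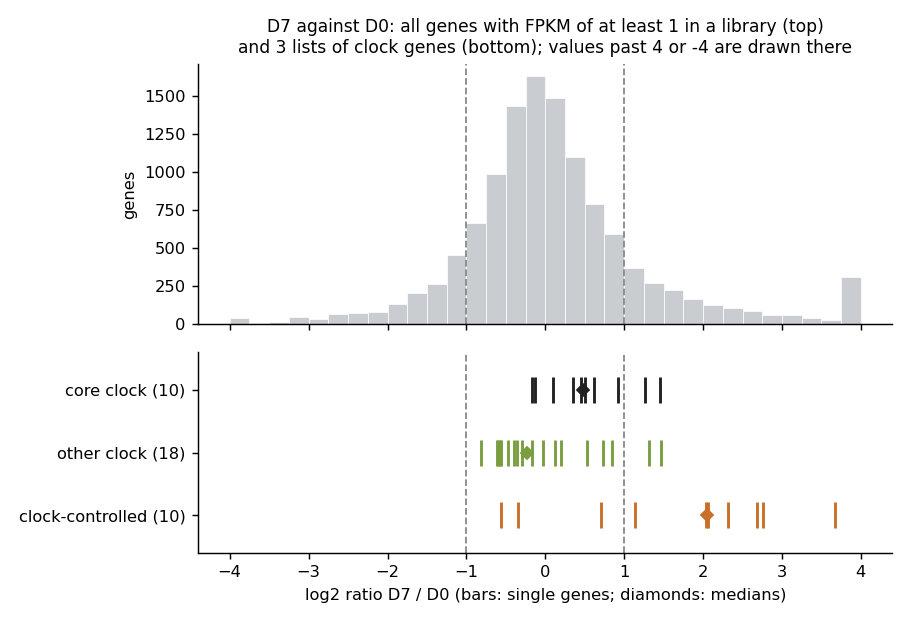
The top panel counts the 11967 genes with an FPKM of at least 1 in a library by their log2 ratio of D7 to D0, and the lower panel marks the genes (bars) and medians (diamonds) of the 3 lists on the same axis. The core clock and other clock genes lie mostly within the dashed 2.0-fold lines, whereas 7 of the 10 clock-controlled genes lie to the right of them.

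Genes of other signals and of cell types were read beside the Per genes, and they did not all move the same way. Of 8 genes known as targets of the glucocorticoid receptor, 4 were higher by at least 2.0-fold (Fkbp5, Zbtb16 from about 1 fragment at D0, and Tsc22d3 and Per1 of the lists above) and 0 lower, with a median ratio of 1.89. Of all genes above 0 in both libraries, 18.5% were higher and 13.2% lower by that fold. Fkbp5 rose from 7.21 to 126 FPKM, while Dusp1 and Cebpd had ratios of 1.05 and 0.998. Of 7 immediate early genes, which respond within minutes to serum or cAMP, 2 were lower by at least 2.0-fold (Nr4a1 and Junb) and 0 higher. These 28.6% past the fold lie near the 31.7% of all genes, so their number is no result about that list. Nr4a1 fell from 30.7 to 3.44 FPKM. The summed FPKM of the 8 macrophage markers was 145 at D0 and 512 at D7, and 7 of them were higher by at least 2.0-fold. The 5 endothelial markers summed to 1.04 and 2.39, with 2 of them higher by at least 2.0-fold (Kdr, from 0.300 to 0.655 FPKM, and Tek, from 0.520 to 1.62 FPKM) and 1 lower (Cdh5, from about 13 to 2 fragments). Pecam1, which defines endothelium, had about 1 fragment in each library. Of the 5 muscle markers, Ckm and Myod1 were listed at 0 in both libraries, and Acta1 fell from 45.4 to 1.73. Among 4 erythroid markers, Alas2 had about 1 fragment in each library and the others were listed at 0. Of 6 preadipocyte markers, 3 were lower and 1 (Cd34) was higher by at least 2.0-fold. The part of these genes in the clock gene values was not tested. In whole cultures, more cells of a type and more RNA per cell cannot be told apart.

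The scaling between the libraries decides which small ratios lie above 1. Values under 0.01 were set to 0.01 and each library was scaled to its own median. The log2 ratio of a gene above the floor then moved by -0.35. Of the 23361 genes compared in this way, 6668 passed 2.0-fold, and 57.5% of these were lower. As deposited, 4747 of 14986 genes passed, 41.7% of them lower. With the floor alone, 6179 of the 23361 genes passed, 40.8% of them lower. The paper reports the same counts of higher and lower genes as the floor and library median gave. Under this scaling Per2 kept a ratio of 2.15, while Per3 and Per1 lay just under 2.0. After the same scaling Clock had a ratio of 1.49, Arntl 0.697 and Nr1d1 0.713, and Ciart passed the lower fold at 0.445. The order of the clock genes by ratio, with Per2 and Per3 at the top and Arntl and Nr1d1 at the bottom, is the same under any factor that multiplies a whole library.

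**Figure D4:**
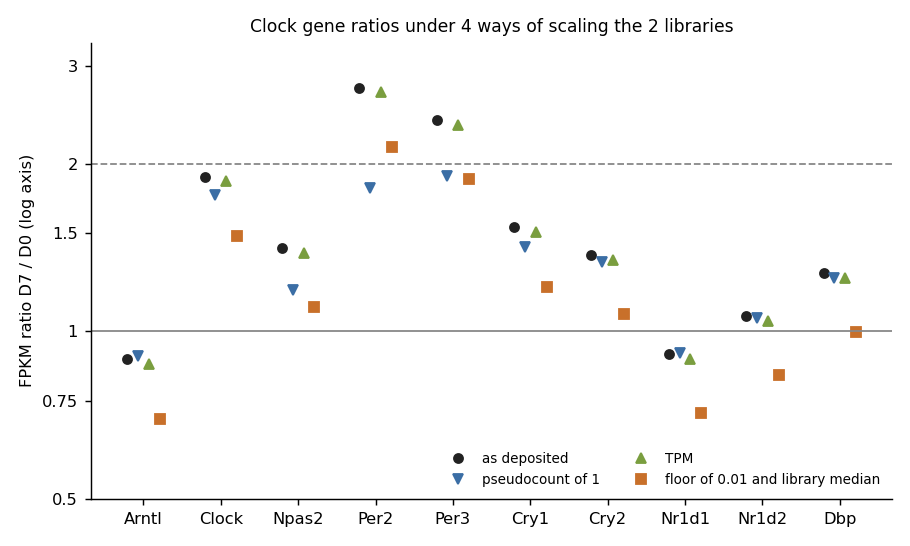
Ratio of FPKM at D7 to D0 (log axis) of the 10 clock genes as deposited (circles), with a pseudocount of 1 (inverted triangles), as TPM (triangles) and with a floor of 0.01 and division by the library median (squares). Per2 falls to 1.81 with the pseudocount, and Dbp reaches 0.998 with the library median.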

How the data were processed

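RNA-Seq of brown preadipocytes (D0) and brown adipocytes (D7) was analysed, with 1 library per stage. Per the paper, the authors filtered the reads, removed duplicates and rRNA, and aligned the others to mm10 with SOAP2. The submitters' processing notes name Bowtie2. The authors deposited 1 FPKM value per gene and library. Of 27324 rows, 3963 without a value were left out.

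Ratios of FPKM of D7 to D0 were computed without a pseudocount or rescaling, and 2.0-fold was the threshold. To recover fragments, 600 single-exon genes of 600 bp or more were used, with 179 and 182 bp taken off the length. All 79 and 90 values of up to 20 fragments were then whole within 0.1, against 14.8% and 20% with lengths shuffled. Other genes were given the length of the transcript the table names or, failing that, of their longest coding transcript. The FPKM that 3 fragments would give was computed for each gene as a limit but was not applied to the calls. Genes below it in a library, such as Zbtb16 at D0, were therefore still called. Intervals of quotients are normal approximations on the log scale. Coordinates are from GENCODE M21.

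All members were named, with list genes past 2.0-fold at an FPKM of at least 1, direct partners of members, the highest markers and genes whose exons overlap a member. Genes that overlap clock-controlled genes, such as Usp2 and Alas1, are not given. Wee1, Noct, Klf10, the kinases and ligases, Dusp1, Cebpd, Cd34, Kdr, Tek, Cdh5 and markers near 0, and the quotient of Nr1d1 to Rora, were named after their values were seen. Some genes of the list of other clock genes are not reported here. The members and lists were chosen with earlier results of these data known. On simulated data, 200 of 200 changed genes and 0 of 11054 others were called, and 95% of intervals held the true fold. The simulation drew counting error only, for genes above an FPKM of 1 at D0, with changes of 4-fold up or down. It therefore does not cover changes near 2.0-fold, the spread between cultures, or genes as low as Per2 and Npas2 at D0. Scripts ran in Python 3.11.15 with pandas 2.3.3, numpy 2.4.6, matplotlib 3.10.9 and scipy 1.17.1.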

Additional observations from a re-analysis of the deposited data

How the results depend on the processing

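The 13 alternatives were 2 pseudocounts, a floor, 5 scalings, 2 filters, 2 thresholds and the summing of rows with the same symbol. The number of clock genes past the fold, 2 as deposited, was 0 with a pseudocount of 1, 1 with the floor of 0.01 and library median, 4 at 1.5-fold and 0 at 4-fold. Other clock genes past the fold numbered 7 at 1.5-fold and 0 at 4-fold, against 2. All genes past it numbered 2554 with a pseudocount of 1, 7686 at 1.5-fold and 1789 at 4-fold, against 4747. The median log2 ratio of the clock genes was 0.12 with the floor and library median, against 0.48 as deposited. The other 8 alternatives for it gave values from 0.37, with a pseudocount of 1, to 0.48. A counting interval for this median is not given. Clock-controlled genes past the fold numbered between 6 and 8. The thresholds change these counts by their construction, and for the other settings the cause was not tested. Dbp, Nr1d2, Nfil3 and Bhlhe40 lay below 1 only with the floor and library median, out of 9 alternatives for a single gene. No paired analysis was possible because each stage had 1 library. Leaving out a library was not possible for the same reason. With about 71 and 85 fragments, Npas2 had the widest interval of the clock genes on a log scale.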
